A study of Mus musculus with 48 samples.

Results

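The genes described here are those of the proteasome, the protease complex that degrades ubiquitin-tagged proteins, as read on 48 oligonucleotide arrays of mouse tissue. They were chosen by name: every gene whose symbol begins with Psma, Psmb, Psmc, Psmd, Psme, Psmf or Psmg, apart from Psmb8 and Psmb9, and whose probe set names that gene alone. The rule found 44 genes, read by 56 probe sets, among 8251 genes that the platform names singly. For the 8 genes with more than 1 probe set, the set with the highest mean over the 48 arrays was used. Of the 44, 42 encode subunits, activators or assembly factors of the proteasome. The other two share only the spelling: Psmc3ip encodes a partner of meiotic recombinases, and Psme3ip1 a protein that binds the activator Psme3. Psme2, Psma8, Psmb11 and Psmf1 were not read by a probe set of their own, Psme2 because both of its probe sets also name a second gene.

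The arrays came from liver, heart, spleen and lung of A/J and C57BL/6J mice, 2 inbred strains, at time points 1 and 2; what they stand for could not be learned from the labels. Each of the 16 combinations had 3 arrays, from male littermates 3 months old that carried no engineered allele or treatment named in the labels. The labels call the replicates biological but do not say whether a mouse gave several tissues or how many litters were used, so the p-values measure the spread between these animals. No aim of the study is stated, and the comparisons are those that tissue, strain and time pose.

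The proteasome has a barrel-shaped core of alpha and beta rings, with the proteolytic sites on the beta subunits Psmb5, Psmb6 and Psmb7. A regulatory particle caps the core: its base holds the Psmc ATPases, which unfold substrates, and its lid removes ubiquitin. Interferon and immune cells bring in the replacement subunits Psmb8, Psmb9 and Psmb10 and the activator made of Psme1 and Psme2, which favour peptides for antigen presentation. Psme3 forms a nuclear activator, Psme4 (PA200) caps the core in nuclei and is abundant in testis, and the Psmg genes encode chaperones that build the core.

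Values are on the log2 scale and were used as deposited, so that a difference of 1 is a 2-fold difference. Array medians lay between 8.87 and 9.02. The names of the scanned files carry 4 prefixes, each taken here to mark an array run. Liver and lung at time 1 shared a prefix, and spleen and heart at time 1 each had their own. All tissues at time 2 shared the last. Strains were therefore compared within runs and tissues at time 2 within a run, while time and run cannot be told apart. Each tissue's own markers were highest in its arrays: heart markers (8 of 8 read) averaged 13.64 to 13.89 in the heart arrays and no more than 10.72 elsewhere, and B and T cell markers (7 of 8 read) 11.01 to 11.64 in spleen and no more than 9.94 elsewhere. Liver markers (7 of 7 read) averaged 12.63 to 13.43 in liver, and elsewhere they were highest in A/J lung at time 1 (9.55 to 9.97) and A/J spleen at time 2 (9.22 to 9.96). Lung markers (4 of 7 read) averaged 14.24 to 14.42 in lung, and elsewhere they were highest in C57BL/6J heart at time 1 (10.88 to 11.82). The mean of the exocrine pancreas markers (8 of 13 read) exceeded 11 in 5 spleen arrays (A/J time 1 replicates 1 and 3, C57BL/6J time 1 replicate 2, C57BL/6J time 2 replicates 1 and 3) and 1 liver array (C57BL/6J time 2 replicate 2), and its median over spleen was 9.82. The 3′ probe set of Gapdh exceeded the 5′ set by more than 1 log2 unit in 3 arrays (A/J heart time 1 replicates 1 and 3, A/J lung time 2 replicate 1).

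Promoter sequence from RefSeq (GRCm38.p6), from 250 bases before to 50 bases after the annotated start, was found for 37 of the 44 genes. 6 of these promoters are printed because the results below turn on their genes: Psme1, Psmg4 and Psmb10 differed between strains in spleen, Psme4 differed most between tissues, and Psmb5 and Psmd4 differed most between strains in liver at time 2. Capitals mark matches, on either strand, to 3 motifs: TGACNNNGC, the core of the antioxidant response element bound by Nfe2l1 and Nfe2l2, which activate proteasome genes; GAAA, any 2 bases and GAAA, the core of the interferon-stimulated response element; and CCAAT. Psme1, chr14:55578244-55578543, plus strand, carries the interferon core on its minus strand from 9 bases past the start. Psmg4, chr13:34162714-34163013, plus strand, carries it on its plus strand from 15 bases past the start. Psmd4, chr3:95042565-95042864, minus strand, carries it from 80 bases before the start, beside 3 CCAAT matches. Psmb5, chr14:54617946-54618245, minus strand, and Psme4, chr11:30771525-30771824, plus strand, carry TGACNNNGC from 47 and 7 bases before the start. Psmb10, chr8:105938343-105938642, minus strand, matched none of the 3.
Psme1: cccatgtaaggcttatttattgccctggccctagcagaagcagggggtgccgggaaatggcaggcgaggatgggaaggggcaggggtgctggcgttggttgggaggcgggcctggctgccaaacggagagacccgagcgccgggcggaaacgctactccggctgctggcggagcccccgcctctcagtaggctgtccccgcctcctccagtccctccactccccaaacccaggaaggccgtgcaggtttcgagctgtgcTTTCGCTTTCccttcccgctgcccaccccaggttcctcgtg
Psmg4: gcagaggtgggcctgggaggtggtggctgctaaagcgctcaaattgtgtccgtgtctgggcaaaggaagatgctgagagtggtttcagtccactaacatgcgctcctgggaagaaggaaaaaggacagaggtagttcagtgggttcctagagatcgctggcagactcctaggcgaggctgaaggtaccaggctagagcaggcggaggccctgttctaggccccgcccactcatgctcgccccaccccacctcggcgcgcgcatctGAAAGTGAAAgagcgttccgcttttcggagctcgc
Psmb10: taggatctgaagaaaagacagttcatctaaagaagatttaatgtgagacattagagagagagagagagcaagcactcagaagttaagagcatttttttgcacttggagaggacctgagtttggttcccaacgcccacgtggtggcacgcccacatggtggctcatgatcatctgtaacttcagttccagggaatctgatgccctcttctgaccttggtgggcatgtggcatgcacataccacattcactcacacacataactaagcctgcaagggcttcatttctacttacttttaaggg
Psme4: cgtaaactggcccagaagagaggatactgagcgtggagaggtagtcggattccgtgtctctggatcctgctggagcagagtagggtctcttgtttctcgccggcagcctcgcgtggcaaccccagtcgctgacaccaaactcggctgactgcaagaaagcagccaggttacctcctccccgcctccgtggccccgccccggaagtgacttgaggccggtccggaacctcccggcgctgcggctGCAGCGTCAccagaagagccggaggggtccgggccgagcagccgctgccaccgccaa
Psmd4: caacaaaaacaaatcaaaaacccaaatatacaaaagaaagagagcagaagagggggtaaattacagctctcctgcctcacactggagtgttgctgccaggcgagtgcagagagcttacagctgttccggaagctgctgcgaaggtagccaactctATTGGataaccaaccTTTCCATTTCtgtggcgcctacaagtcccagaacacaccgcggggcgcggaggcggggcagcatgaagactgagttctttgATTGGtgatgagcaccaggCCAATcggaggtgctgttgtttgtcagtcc
Psmb5: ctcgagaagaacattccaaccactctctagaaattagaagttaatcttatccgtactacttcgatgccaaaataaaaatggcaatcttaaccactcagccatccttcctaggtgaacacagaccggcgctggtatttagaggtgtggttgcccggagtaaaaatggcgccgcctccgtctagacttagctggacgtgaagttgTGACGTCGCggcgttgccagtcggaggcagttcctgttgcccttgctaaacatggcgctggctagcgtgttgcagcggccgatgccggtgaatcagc
The interferon core was found in 12.5% of the 40 promoters of these genes (Psmb3, Psmd4, Psmd9, Psme1 and Psmg4) and in 3.44% of all 32851 promoters of that length. TGACNNNGC was found in 15% (Psmb5, Psmb6, Psmc6, Psmd12, Psmd9 and Psme4) against 12.4% of all. CCAAT was found in 35% against 37.4%. A match describes the letters in this window and was not tested as a binding site.

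The first comparison asked how the proteasome genes differ between tissues, over the 24 arrays of time 2. Most alpha and beta ring genes of the core were higher in liver than in spleen or lung and higher in heart than in lung, whereas Psmb10, Psme1 and Psme3 were highest in spleen and Psme4 in heart. Of the 44 genes, 21 had their highest tissue mean in liver, 12 in heart, 10 in spleen and 1 in lung, and 20 had their lowest in lung. The range of a gene's tissue means ran from 0.073 for Psmc4, an ATPase that this platform read near its lower end, to 1.94 for Psme4, with a median of 0.633. In bulk tissue, fewer cells of a type and less RNA per cell cannot be told apart.

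**Figure D1:**
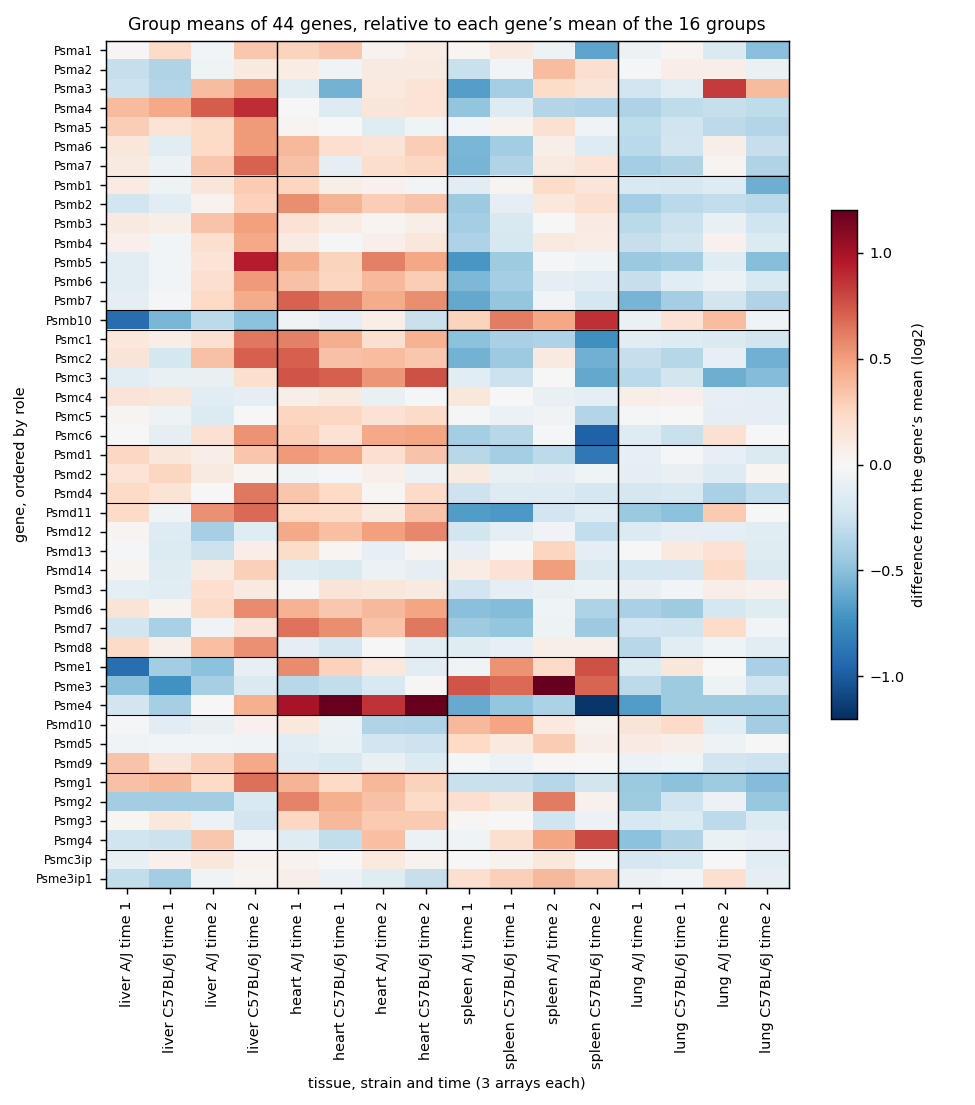
Group means (3 arrays each) of the 44 genes, ordered by role from the alpha ring at the top to the 2 genes that are no subunits at the bottom, as the log2 difference from the gene's mean over the 16 groups. The Psme4 row is highest in the heart columns, the Psma4 row in the liver columns and the Psme3 row in the spleen columns, at both times and in both strains.

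By limma's test with an adjusted p limit of 0.05 over all 12422 probe sets, 25 of the 44 genes were higher in liver than in lung and 1 was lower, against 34.4% and 31.7% of all probe sets (66.1% in either direction). Liver against spleen gave 26 higher and 8 lower, where all probe sets gave 30.1% and 31.3%. Heart against lung gave 26 higher and 4 lower (39.2% and 29.3% of all, 68.5% together), and heart against spleen 21 higher and 11 lower (37.3% and 29.8%, 67% together). Spleen against lung gave 19 higher and 8 lower (29.3% and 23.8%), and liver against heart 15 higher and 9 lower (22.3% and 34.5%). The share called in either direction was 54.5% of the genes for liver against heart, below the 56.8% of all probe sets, and 77.3% for liver against spleen, above the 61.4%. The median difference of the 44 genes was 0.36 for liver over lung and 0.32 for heart over lung, where the medians of all probe sets were 0.037 and 0.083. For liver against heart it was 0.022, and with quantile normalization it was -0.00119, with 12 genes higher and 13 lower.

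Among the activators, Psme4 was the gene with the widest tissue range. At time 2 its 6 heart arrays ran from 11.05 to 11.98 (median 11.72), its liver arrays from 10.30 to 11.06 (10.64), its lung arrays from 9.54 to 10.30 (10.13) and its spleen arrays from 8.98 to 10.27 (9.76). Every heart array lay above every lung and spleen array, while the lowest heart array and the highest liver array met. Heart exceeded spleen by 1.94 (3.85-fold, SE 0.13, adjusted p = 7.66e-12), lung by 1.60 (3.03-fold, SE 0.13, adjusted p = 3.58e-10) and liver by 0.95 (1.94-fold, SE 0.13, adjusted p = 1.59e-06). Liver exceeded spleen by 0.99 (SE 0.13, adjusted p = 7.63e-07).

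Psme3 had its highest values in spleen. The 6 spleen arrays ran from 11.28 to 12.54 (median 11.86), against 10.58 to 10.96 in heart, 10.50 to 10.92 in lung and 10.35 to 10.78 in liver. No spleen array overlapped another tissue, and the other 3 tissues overlapped one another. Spleen exceeded liver by 2.62-fold (log2 difference for liver over spleen -1.39, SE 0.097, adjusted p = 8.67e-12), lung by 2.39-fold (1.26, SE 0.097, adjusted p = 9.47e-11) and heart by 2.28-fold (-1.19 for heart over spleen, SE 0.097, adjusted p = 1.72e-10). Markers of dividing cells (9 of 9 read) were also highest in spleen, at 9.13 to 10.73 against at most 8.93 in any array of the other tissues over both times. Their part in the Psme3 level was not tested.

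Psme1, which pairs with Psme2 in the interferon-induced activator, was also highest in spleen at time 2. Its spleen arrays ran from 11.25 to 12.22 (median 11.71), heart from 10.999 to 11.44 (11.22), lung from 10.62 to 11.35 (11.05) and liver from 10.53 to 11.29 (10.95). Spleen overlapped each of the others by its lowest arrays. Spleen exceeded liver (-0.79 for liver over spleen, SE 0.10, adjusted p = 2.75e-07), lung (0.69, SE 0.10, adjusted p = 3.11e-06) and heart (-0.50 for heart over spleen, SE 0.10, adjusted p = 0.000133). The other probe set of Psme1, whose mean of 6.87 lies at the 14.3th percentile of all probe sets, gave the opposite order for heart and spleen, with heart higher by 1.25 (adjusted p = 2.11e-08). At time 1, where heart and spleen were in different runs, the main probe set also gave heart the higher level, by 0.18 (adjusted p = 0.0346).

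In the core, Psmb10 is the interferon-induced replacement for Psmb7. Its spleen arrays ran from 11.49 to 12.07 (median 11.68), lung from 10.91 to 11.54 (11.18), heart from 10.69 to 11.23 (10.97) and liver from 10.47 to 10.90 (10.66). Spleen overlapped lung only. All pairs of tissues differed: spleen exceeded liver by 2.101-fold (-1.07 for liver over spleen, SE 0.070, adjusted p = 2.19e-12), heart by 1.70-fold (-0.77 for heart over spleen, adjusted p = 1.13e-09) and lung by 1.42-fold (0.51, adjusted p = 1.28e-06). Lung exceeded liver (-0.56 for liver over lung) and heart (-0.26 for heart over lung), and heart exceeded liver (-0.31 for liver over heart, adjusted p = 0.000638).

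The 3 constitutive subunits with proteolytic sites showed the other order. Psmb7, with the trypsin-like site, ran from 11.18 to 11.37 in heart and 10.98 to 11.27 in liver, against 10.46 to 11.02 in spleen and 10.15 to 10.67 in lung. Heart exceeded lung by 0.79 (1.73-fold, SE 0.077, adjusted p = 5.08e-09) and spleen by 0.63 (adjusted p = 1.86e-07), and liver exceeded them by 0.63 (adjusted p = 1.70e-07) and 0.46 (adjusted p = 1.41e-05). Liver and heart, and spleen and lung, did not differ past the limit for this gene (adjusted p = 0.082 and 0.0761). Psmb6, with the caspase-like site, was higher in liver and heart than in lung by 0.48 and 0.47, and higher than in spleen by 0.48 and 0.47 (adjusted p from 6.07e-06 to 9.41e-06).

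Psmb5, with the chymotrypsin-like site, ran from 10.39 to 11.55 in liver, 10.87 to 11.23 in heart, 9.91 to 10.76 in spleen and 9.43 to 10.38 in lung. It was higher in liver than in lung by 0.88 (SE 0.15, adjusted p = 1.46e-05) and in heart than in lung by 0.86 (adjusted p = 1.91e-05). Its second probe set, of nearly the same mean level, gave 0.42 for liver over lung (adjusted p = 1.50e-05) but -0.049 for heart over lung (adjusted p = 0.544) and 0.47 for liver over heart (adjusted p = 3.97e-06). The higher heart level of Psmb5 therefore rests on 1 of its 2 probe sets.

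**Figure D2:**
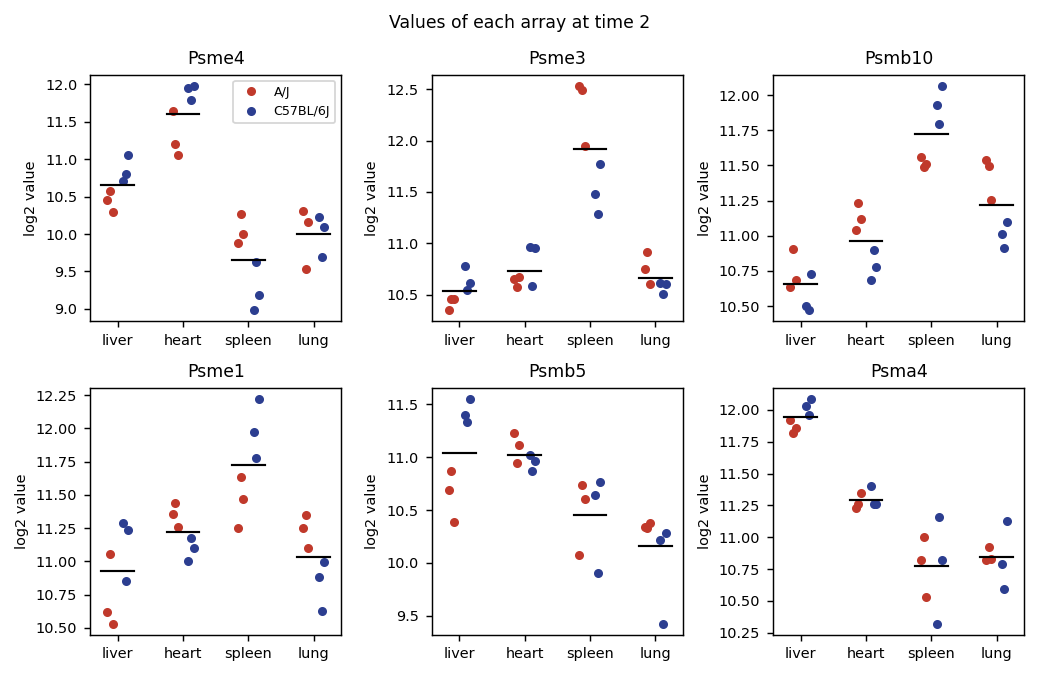
Log2 values of each array at time 2 for Psme4, Psme3, Psmb10, Psme1, Psmb5 and Psma4, by tissue, with A/J in red, C57BL/6J in blue and a line at the mean of the 6 arrays. Psme4 is highest in heart, Psme3, Psmb10 and Psme1 in spleen, and Psma4 in liver, where no array falls below 11.82.

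Of the 7 constitutive beta ring genes, 7 were higher in liver than in lung (median difference 0.58), 6 were higher in heart than in lung (0.47) and 5 were higher in liver than in spleen (0.36), by the probe set used for each gene. For liver over lung the 2 other Psmb1 sets gave -0.56 (adjusted p = 4.16e-09) and 0.51 (adjusted p = 0.000158), and the 2 other Psmb4 sets 0.095 and 0.10, neither called. Of the 7 alpha ring genes, which gate the core, 6 were higher in liver than in spleen and 1 was lower, and 5 were higher in liver than in lung. Psma4 led them: its 6 liver arrays ran from 11.82 to 12.09, its heart arrays from 11.23 to 11.40, its lung arrays from 10.60 to 11.13 and its spleen arrays from 10.32 to 11.16. Liver lay above every other array, and heart above every spleen and lung array. Liver exceeded spleen by 1.17 (2.25-fold, SE 0.11, adjusted p = 9.75e-10), lung by 1.0975 (2.14-fold, adjusted p = 3.28e-09) and heart by 0.65 (1.57-fold, adjusted p = 1.28e-05). Psma3 was the gene whose highest mean lay in lung, at 12.07 to 13.07 against 12.05 to 12.34 in heart (-0.47 for heart over lung, SE 0.099, adjusted p = 0.000272) and 11.91 to 12.42 in spleen (-0.42 for spleen over lung, adjusted p = 0.000957). It did not differ past the limit between liver and lung (-0.17, adjusted p = 0.133).

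In the base of the regulatory particle, 5 of the 6 Psmc ATPases were higher in heart than in spleen (median 0.72) and 5 higher in heart than in lung (0.44). Psmc3 ran from 10.53 to 11.02 in heart, above every array of liver (9.90 to 10.30), spleen (9.33 to 10.21) and lung (9.37 to 9.65). Heart exceeded lung by 1.21 (2.31-fold, SE 0.071, adjusted p = 5.55e-13), spleen by 0.96 (adjusted p = 2.65e-11) and liver by 0.60 (-0.60 for liver over heart, adjusted p = 1.16e-07). The 2 other Psmc3 probe sets gave 0.54 and 0.97 for heart over lung, both called. Psmc6 was higher in heart than in spleen by 0.97 (SE 0.13, adjusted p = 4.21e-07) and lower in spleen than in lung (-0.59, adjusted p = 0.000361). Psmc1 was higher in liver than in spleen by 0.96 (SE 0.051, adjusted p = 4.51e-14), with no array of 10.05 to 10.60 in liver overlapping 9.16 to 9.58 in spleen. Of the scaffold subunits of the base, Psmd1 was lower in spleen than in lung (-0.45, adjusted p = 4.50e-05).

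The lid and the assembly factors were less uniform. Of the 8 lid genes, 5 were higher in heart than in spleen and 1 lower, and 3 were higher in liver than in lung. Psmd12 was 1.75-fold higher in heart than in liver (-0.81 for liver over heart, SE 0.11, adjusted p = 1.02e-06), while Psmd8 was higher in liver (0.53, adjusted p = 3.06e-07). The 3 chaperones of the base, Psmd5, Psmd9 and Psmd10, were all higher in liver than in heart, led by Psmd9 (0.49, SE 0.066, adjusted p = 6.74e-07), and all higher in spleen than in lung. The 4 core chaperones were higher in heart than in lung. Psmg1 was 1.89-fold higher in liver than in lung (0.92, SE 0.067, adjusted p = 2.20e-11), and Psmg4 was 1.65-fold higher in spleen than in lung (0.73, SE 0.071, adjusted p = 5.81e-09).

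With the time 1 arrays in place of time 2, across several runs except for liver and lung, the difference kept its sign in 40 of 44 genes for liver against spleen and in 39 for heart against lung. For liver against heart 27 kept it, and the calls there were 5 higher and 26 lower (37.5% and 30.5% of all probe sets), against 15 and 9 at time 2. For liver against lung, which shared a run at time 1 as well, 38 kept the sign and 25 were higher and 8 lower (46.9% and 32.6% of all).

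The second comparison asked which genes differ between the strains within a tissue, over 12 arrays with time as an additive term. Few did. In liver 2 of 44 were lower in A/J (2.53% of all probe sets were lower and 1.54% higher), in heart 2 were higher and 1 lower (4.57% and 2.91%), and in spleen 1 was higher and 3 lower (6.05% and 6.67%). In lung none passed limma's test (2.7% higher and 2.52% lower of all, 5.22% together). At an unadjusted p below 0.05, 4 were higher and 0 lower. Those shares are at the adjusted limit and cannot be set against these counts. The shares called in either direction, 4.55%, 6.82% and 9.09% in liver, heart and spleen, were near the 4.07%, 7.48% and 12.7% of all probe sets. Among the probe sets not used, 1 of Psmd11 was called higher in A/J spleen by limma (0.30, adjusted p = 0.0145). Its other unused set gave 0.32 (adjusted p = 0.101). The set used for Psmd11 was not called there, with means of 11.54 in A/J and 11.57 in C57BL/6J.

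Psme1 was called in 3 tissues, in opposite directions. In spleen at time 1 its values were 11.34, 11.03 and 11.18 in A/J and 11.71, 11.75 and 11.84 in C57BL/6J, and at time 2 they were 11.25, 11.63 and 11.47 against 11.97, 11.78 and 12.22. No A/J spleen array reached the lowest C57BL/6J array, and A/J was lower by 1.48-fold (-0.56, SE 0.087, adjusted p = 0.000947). In liver the values were 10.42, 10.45 and 10.08 in A/J against 10.89, 10.62 and 10.91 at time 1, and 10.62, 11.05 and 10.53 against 11.29, 10.85 and 11.24 at time 2. The strains overlapped at time 2 by 1 array of each, and A/J was lower by 0.44 overall (SE 0.11, adjusted p = 0.0321).

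In heart the order of the strains turned. Psme1 read 11.76, 11.85 and 11.77 in A/J and 11.5002, 11.48 and 11.53 in C57BL/6J at time 1, and 11.36, 11.44 and 11.26 against 10.999, 11.18 and 11.10 at time 2. Within each time every A/J heart array lay above every C57BL/6J array, and A/J was higher by 0.28 (1.21-fold, SE 0.047, adjusted p = 0.00188). In lung A/J was lower at time 1 (11.01, 11.02 and 11.16 against 11.54, 11.21 and 11.33) and higher at time 2 (11.25, 11.35 and 11.10 against 10.88, 10.62 and 10.997), with no overlap at either time. With the mean of both Psme1 probe sets the liver and heart differences were -0.21 (adjusted p = 0.0662) and 0.042 (adjusted p = 0.789), since the dimmer set gave 0.011 in liver, -0.19 in heart and 0.019 in spleen, none called.

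The mean of the interferon response genes (11 of 13 read) was lower in A/J than in C57BL/6J in spleen at time 1 (9.34 against 9.78) and in liver at time 1 (8.68 against 8.99), and higher in A/J in spleen at time 2 (9.65 against 9.52). It was 8.903 against 9.03 in liver at time 2, 9.01 against 9.30 in lung at time 1 and 9.28 against 9.29 in lung at time 2. In heart, where Psme1 was higher in A/J, it was lower in A/J at time 1 (8.55 against 9.00) and time 2 (8.76 against 9.02). Its part in the Psme1 difference was not tested.

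Of the 4 tissues, Psmb10 passed in spleen. Its A/J values were 11.44, 11.16 and 11.37 at time 1 and 11.56, 11.49 and 11.51 at time 2, against 11.60, 11.69 and 11.73 and then 11.93, 11.80 and 12.07 in C57BL/6J. All 6 A/J arrays lay below all 6 C57BL/6J arrays, by 0.38 on average (1.302-fold, SE 0.065, adjusted p = 0.00164). In heart A/J exceeded C57BL/6J by 0.21 without passing (adjusted p = 0.0604). In lung Psmb10 was lower in A/J at time 1 (10.84, 11.0005 and 11.08 against 11.37, 11.08 and 11.23) and higher at time 2 (11.54, 11.495 and 11.25 against 11.01, 10.91 and 11.10), with no overlap at either time.

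Psmg4, a chaperone that helps assemble the alpha ring, was higher in A/J in heart and lower in A/J in spleen. In heart it read 10.23, 10.16 and 10.05 in A/J and 10.02, 9.91 and 10.07 in C57BL/6J at time 1, and 10.54, 10.85 and 10.59 against 10.31, 10.25 and 10.12 at time 2. The strains overlapped at time 1 and not at time 2, and A/J was higher by 0.29 (SE 0.072, adjusted p = 0.0213). In spleen it read 10.21, 10.27 and 10.27 against 10.45, 10.69 and 10.34 at time 1 and 10.85, 10.71 and 10.75 against 11.25, 10.91 and 11.12 at time 2, lower in A/J at both times with no overlap (-0.28, SE 0.073, adjusted p = 0.0212). In liver at time 2 it was the only one of the 44 called higher in A/J, at 10.75, 10.63 and 10.48 against 10.30, 10.30 and 10.17 (0.37, SE 0.090, adjusted p = 0.0343 in that time alone).

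Psme4 was lower in A/J heart. At time 1 it read 11.36, 11.39 and 11.49 in A/J and 11.78, 11.83 and 11.98 in C57BL/6J, and at time 2 11.65, 11.20 and 11.05 against 11.95, 11.79 and 11.98. No A/J heart array reached any C57BL/6J heart array, and the difference was -0.53 (1.44-fold lower in A/J, SE 0.086, adjusted p = 0.00136). It passed within each time as well, at -0.45 and -0.60. In spleen the strains overlapped at time 1, and at time 2 A/J was higher (9.89, 10.27 and 10.0002 against 8.98, 9.63 and 9.18).

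**Figure D3:**
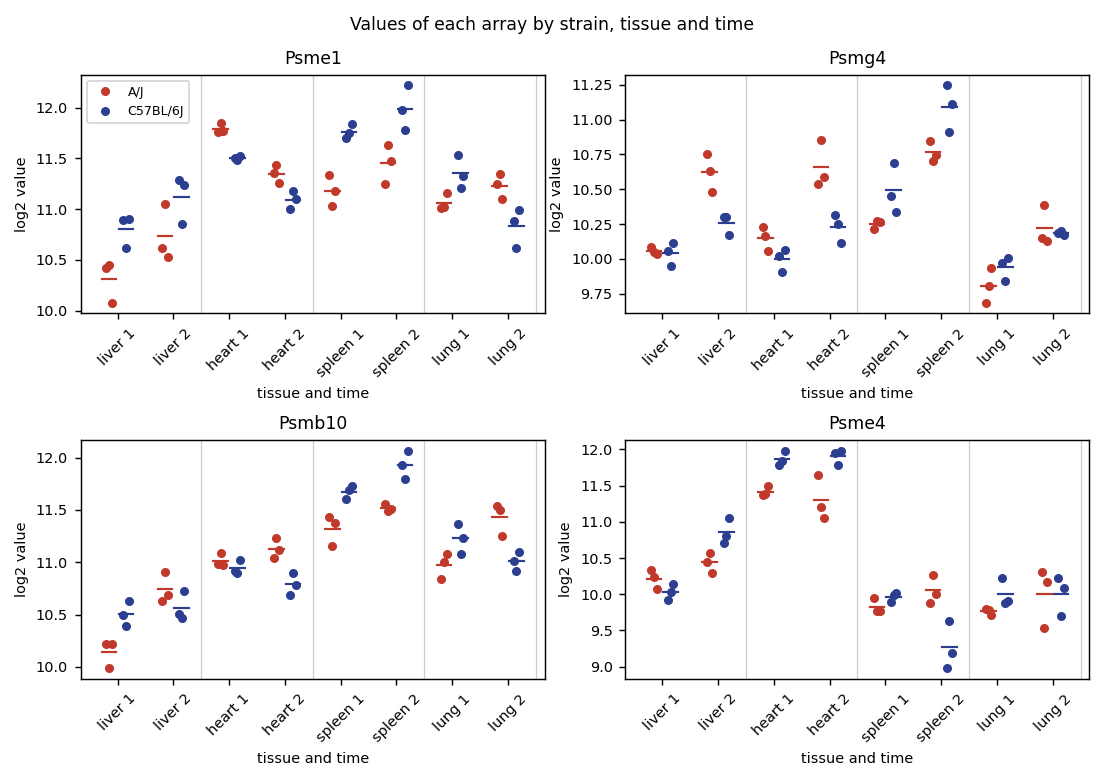
Log2 values of each array for Psme1, Psmg4, Psmb10 and Psme4, by tissue and time, with A/J in red, C57BL/6J in blue and a line at each mean of 3 arrays. Psme1 is lower in A/J in liver and spleen and higher in A/J in heart, and Psme4 is lower in A/J in heart at both times.

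The remaining calls were smaller in support. Psmc3 in spleen was higher in A/J by 0.36 (SE 0.11, adjusted p = 0.0395): the strains overlapped at time 1 and not at time 2, where it read 10.05, 10.21 and 9.94 in A/J and 9.33, 9.57 and 9.49 in C57BL/6J. With the mean of its 3 probe sets it did not pass (0.15, adjusted p = 0.362). Psma1 in liver was lower in A/J by 0.28 (SE 0.070, adjusted p = 0.0352), from 9.29, 9.16 and 8.98 against 9.23, 9.45 and 9.39 at time 1 and 9.18, 9.17 and 8.94 against 9.41, 9.41 and 9.52 at time 2.

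The number of these calls varied as arrays were left out. In liver no call remained without A/J time 1 replicate 3, A/J time 2 replicate 1 or 3, C57BL/6J time 1 replicate 3, or C57BL/6J time 2 replicate 1 or 3, and 1 remained without A/J time 1 replicate 2, A/J time 2 replicate 2 or C57BL/6J time 2 replicate 2. In spleen 2 remained without C57BL/6J time 1 replicate 2 or C57BL/6J time 2 replicate 3. In lung 1 gene passed, higher in A/J, without C57BL/6J time 1 replicate 1. How many of all probe sets were called in these fits is not given here, so the changes are not read as a trait of these genes.

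Without the 5 spleen arrays with pancreas markers no spleen call remained. That fit kept 1 A/J array at time 1 and 1 C57BL/6J array at time 2, and whether the loss came from the few arrays was not tested. Psme1 was then lower in A/J by nearly the same amount (-0.52), as was Psmb10 (-0.38), while Psmc3 gave 0.30 and Psmg4 -0.13. The 12 spleen arrays also differed in erythroid precursor markers (8 of 9 read), whose mean at time 2 was 11.96 to 12.24 in A/J and 9.07 to 9.72 in C57BL/6J, and in dividing cell markers, at 10.23 to 10.73 and 9.13 to 9.24. Liver markers lay at 9.22 to 9.96 in A/J spleen at time 2 against 7.98 to 8.89 in C57BL/6J, and at 8.16 to 8.18 against 8.0 to 8.11 at time 1. Their part in the spleen differences was not tested.

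Whether the strain difference itself varied by tissue was tested over all 48 arrays with an F test. It passed for 10 of 44 genes, against 18.5% of all probe sets, and Psme1 led with F = 15.2 (adjusted p = 2.42e-05), from its A/J minus C57BL/6J differences of -0.44 in liver, 0.28 in heart, -0.56 in spleen and 0.052 in lung. Psmg4 followed with F = 12.6 (adjusted p = 0.000116; 0.19, 0.29, -0.28 and -0.048 in the same order). Psmc3 gave F = 8.92 (adjusted p = 0.00153), Psmb10 7.19 (adjusted p = 0.00547), Psme4 6.32 (adjusted p = 0.0107) and the core chaperone Psmg1 5.59 (adjusted p = 0.0186). Psmb5 passed as well (F = 4.50, adjusted p = 0.0449). The dimmer Psme1 probe set gave F = 0.57 (adjusted p = 0.765), the 2 other Psmc3 sets 0.63 and 2.06 (adjusted p = 0.740 and 0.290), and the second Psmb5 set 0.49 (adjusted p = 0.801).

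With time 2 alone, where all 4 tissues shared a run, 24 genes passed, against 27.2% of all probe sets, and all 10 were among them. The fit over both times without the 6 arrays with pancreas markers left 1 array in some groups, and its count is not read here. Without C57BL/6J spleen time 2 replicate 1 alone 6 remained. As the share of all probe sets in that fit is not given here, the drop is not read as a trait of these genes.

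The third comparison asked whether the strain difference changed between the times. In liver it passed for 6 genes, 5 of them with a more negative A/J minus C57BL/6J difference at time 2, against 3.9% of all probe sets in that direction and 1.01% in the other, 4.9% together. The 5 were Psmd4, the ubiquitin receptor of the base (-0.72, SE 0.13, adjusted p = 0.0102), the ATPases Psmc2 (-0.74, SE 0.17, adjusted p = 0.0245) and Psmc1 (-0.49, SE 0.11, adjusted p = 0.0222), the alpha subunit Psma7 (-0.56, SE 0.13, adjusted p = 0.0242) and Psme4 (-0.60, SE 0.15, adjusted p = 0.0393). Psmb10 moved the other way (0.54, SE 0.14, adjusted p = 0.0478). Psmb5, at -0.68, did not pass (adjusted p = 0.052). Among the probe sets not used for these genes, 1 of Psmd11 (-0.60, adjusted p = 0.0231) and 1 of Psmc3 (-0.58, adjusted p = 0.0482) passed as more negative. The other Psmg3 set passed as more positive (0.50, adjusted p = 0.0430).

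Psmd4 in liver read 11.90, 11.79 and 11.66 in A/J and 11.58, 11.87 and 11.66 in C57BL/6J at time 1. At time 2 it read 11.46, 11.54 and 11.62 against 12.28, 12.20 and 12.07. The strains overlapped at time 1 and were separated at time 2, with C57BL/6J above A/J. Psmc2 read 10.69, 10.44 and 10.22 against 10.01, 10.21 and 10.04 at time 1, higher in A/J, and 10.66, 10.80 and 10.47 against 11.14, 10.95 and 10.95 at time 2, lower in A/J. Psmc1 read 10.12, 9.97 and 10.0016 against 9.95, 10.09 and 9.93 at time 1 and 10.11, 10.10 and 10.05 against 10.60, 10.43 and 10.59 at time 2. Its A/J arrays covered nearly the same range at both times, and its C57BL/6J arrays lay above them at time 2.

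Psma7 read 11.04, 10.88 and 10.79 in A/J against 10.73, 10.73 and 10.73 at time 1, and 11.03, 11.32 and 11.02 against 11.46, 11.54 and 11.54 at time 2. Psmb10 went from lower in A/J at time 1 (10.22, 9.99 and 10.21 against 10.50, 10.39 and 10.63) to overlapping at time 2 (10.63, 10.90 and 10.69 against 10.50, 10.47 and 10.73). Over all 44 genes in liver, 15 lay lower in A/J at time 1 and 37 at time 2, where 53.0% and 40.5% of all probe sets did. At time 2, 25 of the 44 had all 3 A/J arrays below all 3 C57BL/6J arrays, against 14.9% of all probe sets, and at time 1 it was 2, against 9.45%. Over the 44 genes the difference, A/J less C57BL/6J, had a median of 0.087 at time 1 and -0.21 at time 2, where that of all probe sets was -0.0087 and 0.043.

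At time 2 alone limma called 11 genes lower and 1 higher in A/J liver, against 6.66% and 3.49% of all probe sets. Psmb5 was the largest: it read 10.69, 10.87 and 10.39 in A/J and 11.40, 11.34 and 11.55 in C57BL/6J (-0.78, SE 0.12, adjusted p = 0.00559). The second Psmb5 probe set did not share this: its strain difference over both times was 0.080 (adjusted p = 0.586) and its change between the times 0.066 (adjusted p = 0.765). Then came Psmd4 (-0.64, adjusted p = 0.00282), Psmc1 (-0.45, adjusted p = 0.00864) and Psmg1 (-0.43, adjusted p = 0.0132). Psme4, Psma7, Psmc2, Psmc6, Psma1, Psmd6 and Psmd13 lay between -0.42 and -0.34. They span the core, the base, the lid, an activator and a chaperone. At time 1 alone none of the 44 passed limma's test in liver, where 2.77% of all probe sets did. At an unadjusted p below 0.05, 4 were higher and 2 lower in A/J. The share of all probe sets at that limit was not counted, so these 2 counts are not read further.

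The mean distance of the 42 proteasome genes from their own means over the 48 arrays gave the same picture per array. In liver at time 2 the A/J arrays lay between 0.019 and 0.16 and the C57BL/6J arrays between 0.26 and 0.32, with no overlap. Liver markers also differed between these arrays, at 12.83 to 12.99 in A/J and 13.35 to 13.43 in C57BL/6J, as they did at time 1 (12.63 to 12.65 and 12.85 to 12.998 in the same order), and their part in the liver differences was not tested. In liver at time 1 the strain means were -0.027 and -0.076 and the arrays overlapped. In spleen at time 2 the A/J mean was 0.071 and the C57BL/6J mean -0.11, and in lung -0.070 and -0.23. Heart had the highest level at time 1, where A/J averaged 0.26 and C57BL/6J 0.17. The same distance over all probe sets stayed between -0.017 and 0.022 in every group mean.

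**Figure D4:**
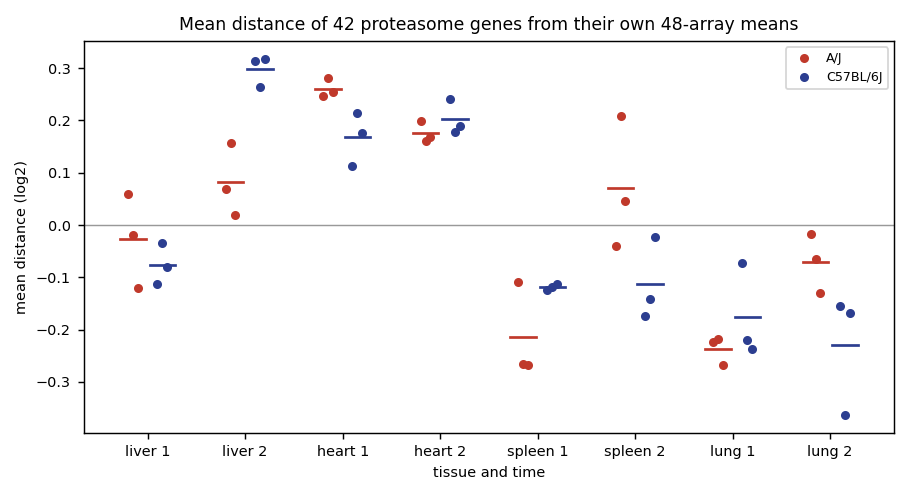
Mean distance (log2) of the 42 proteasome genes from their own means over 48 arrays, for each array, by tissue and time, with A/J in red, C57BL/6J in blue and a line at each mean of 3 arrays. The 3 C57BL/6J liver arrays of time 2 lie above 0.26 and the 3 A/J arrays below 0.16.

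**Figure D5:**
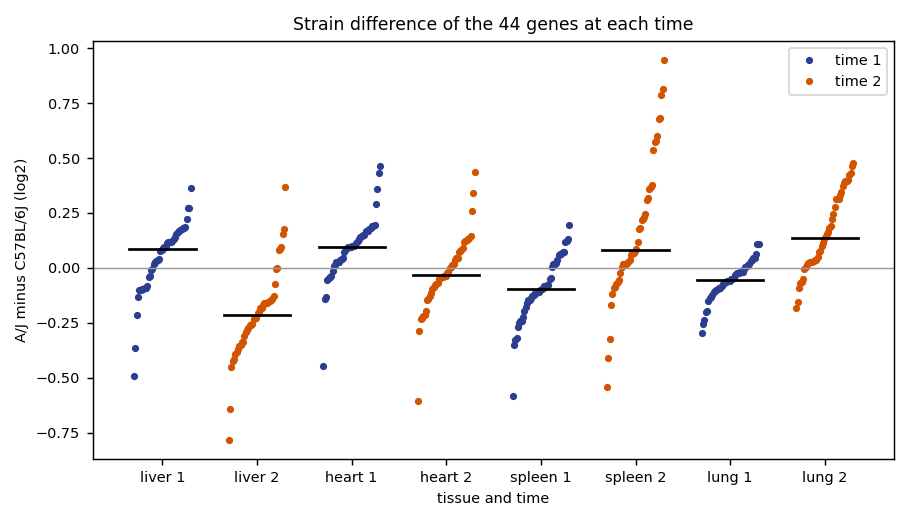
A/J minus C57BL/6J difference of each of the 44 genes (log2, means of 3 arrays a strain) at each tissue and time, sorted within a column, with a line at the median. In liver the median moves from 0.087 at time 1 to -0.21 at time 2, and in lung from -0.054 to 0.14.

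The count of 6 genes in liver varied with single arrays. It was 1 without A/J time 1 replicate 1, A/J time 2 replicate 1 or A/J time 2 replicate 3, 2 without A/J time 1 replicate 2, 3 without C57BL/6J time 1 replicate 1, C57BL/6J time 2 replicate 2 (the liver array with pancreas markers) or C57BL/6J time 2 replicate 3, 11 without A/J time 1 replicate 3, and 16 without A/J time 2 replicate 2. With each array centred on its median the split was 0 higher and 12 lower. The share of all probe sets called in these fits is not given here. The changes in count are therefore not read as a trait of these genes.

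In the other tissues no gene passed the test of a change in the strain difference, by limma. In spleen and lung the direction was the reverse of liver: 12 and 15 of the 44 had a more positive A/J minus C57BL/6J difference at time 2 at an unadjusted p below 0.05 and 0 a more negative one, where 8.13% and 9.04% of all probe sets were more positive. In heart 2 were more positive and 11 more negative, against 4.44% and 6.21%. After adjustment 0.209%, 0.177% and 0.386% of all probe sets passed in spleen, lung and heart. Leaving out 1 array gave 5 calls in spleen without A/J time 2 replicate 1, 3 without C57BL/6J time 2 replicate 2, 1 in lung without C57BL/6J time 1 replicate 2 or A/J time 2 replicate 3, and 1 in heart without C57BL/6J time 1 replicate 2. Shares of all probe sets in those fits are not given here, and the counts are not read further.

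At time 2 alone 7 genes were higher and 2 lower in A/J spleen, against 5.34% and 3.58% of all probe sets. The 2 were Psme1 (-0.54) and Psmb10 (-0.41), and the 7 were Psmc6 (0.95), Psme3 (0.81), Psme4 (0.79), the lid deubiquitinase Psmd14 (0.68), Psmc2 (0.68), Psmc3 (0.60) and Psmc1 (0.37). The interferon-induced Psme1 and Psmb10 and the 4 called ATPases lay on opposite sides in the same 6 arrays, in which the erythroid, dividing cell and liver markers above also differed between the strains. In lung at time 2, Psmb1 passed (0.43, SE 0.10, adjusted p = 0.0447), where 2.25% of all probe sets were higher in A/J and 1.3% lower. Its 2 other sets gave strain differences of 0.00076 and -0.15 in lung over both times, neither called. Of the 44, 14 of the 44 had all A/J arrays above all C57BL/6J arrays in lung at time 2, against 12.9% of all probe sets.

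The fourth comparison set time 2 against time 1 within a tissue, with strain as an additive term, and it is equally a comparison of array runs. In liver 27 genes were higher at time 2 and 2 lower, where 20.2% and 30.1% of all probe sets were, 50.3% together. The median difference of the 44 was 0.31, against -0.057 over all probe sets, and with quantile normalization it was 0.20. All 7 constitutive beta ring genes, all 3 activators and 6 of the 8 lid genes were higher by the probe set used for each, and none of the 3 base chaperones passed. Other sets of these genes were called in the opposite direction: the dimmer Psme1 set (-0.90, adjusted p = 7.10e-05), both other Psmb4 sets (-0.16 and -0.17) and 1 of the 2 other Psmd11 sets (-0.24). A second Psmb1 set (0.31) and the remaining Psmd11 set (0.30) were called higher. In spleen 17 were higher and 3 lower (13% and 18.9% of all, 31.9% together), in heart 5 higher and 12 lower (15.7% and 19.3%), and in lung 8 higher and 5 lower (15.8% and 18.9%). The lung split was 7 and 7 with quantile normalization and 11 and 2 with arrays centred on their medians.

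Psma3, an alpha ring subunit, was higher at time 2 in every tissue. It ran from 11.57 to 11.89 at time 1 and 12.27 to 12.56 at time 2 in liver (0.74, 1.67-fold, SE 0.069, adjusted p = 5.83e-06), and from 11.37 to 11.98 and 12.05 to 12.34 in heart (0.49, SE 0.083, adjusted p = 0.00063). In spleen it ran from 11.24 to 11.89 and 11.91 to 12.42 (0.73, SE 0.11, adjusted p = 0.000719), and in lung from 11.65 to 12.09 and 12.07 to 13.07 (0.79, SE 0.13, adjusted p = 0.000555). The times overlapped in lung only. Psmg4 was also higher at time 2 in every tissue: liver (0.39), heart (0.37), spleen (0.56) and lung (0.33). Psmd11, a lid subunit, was 1.55-fold higher in lung (11.36 to 11.66 against 11.91 to 12.56, difference 0.63, SE 0.085, adjusted p = 0.000174). The 2 other Psmd11 sets gave 0.040 and -0.014 in lung, neither called.

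In liver the largest rises after Psma3 were those of Psmb5 (0.63, SE 0.13, adjusted p = 0.00138) and Psmc2 (0.56, SE 0.13, adjusted p = 0.00276), with Psmb5 at 0.29 within A/J and 0.97 within C57BL/6J, and Psmc2 at 0.19 and 0.93. The difference between the strains in this passed for Psmc2 and not for Psmb5, as given above. The second Psmb5 probe set gave 0.15 (adjusted p = 0.0568). Psmc4 (-0.27) and the core chaperone Psmg3 (-0.22) were lower. The other Psmg3 probe set gave -0.022 and was not called (adjusted p = 0.857 by limma). In spleen Psma7 (0.60) was higher and Psmc4 (-0.17) lower, and in heart Psmc6 (0.24) was higher.

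Psmd10, also known as the oncoprotein gankyrin, was lower at time 2 in heart (7.42 to 7.73 against 7.11 to 7.27; -0.40, SE 0.052, adjusted p = 9.75e-05), lung (-0.46, SE 0.072, adjusted p = 0.000446) and spleen (-0.35, adjusted p = 0.0108). Psma1 was lower in heart (-0.23), lung (-0.32) and spleen (-0.42), Psmc3 in lung (-0.29) and Psme1 in heart (-0.43, SE 0.047, adjusted p = 3.55e-05). The same Psme1 probe set was called higher at time 2 in liver (0.37) and spleen (0.25), and was not called in lung (-0.18). The dimmer Psme1 set was called lower in liver (-0.90) and spleen (-0.50), and gave 0.21 in heart, not called.

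Some counts were smaller within a single strain. C57BL/6J alone gave 7 calls in heart, 7 in spleen and 4 in lung, where 13%, 8.27% and 4.72% of all probe sets were called, and A/J alone gave 12 in liver, where 27.6% were. Heart fell from 17 calls to 11 without A/J time 2 replicate 3, and lung rose from 13 to 21 without C57BL/6J time 2 replicate 2. Calls also fell in heart without the A/J time 1 arrays of high Gapdh 3′ signal, and in spleen without the arrays with pancreas markers. Each of the last 2 fits left 1 array in some groups. The share of all probe sets called with arrays left out was not counted, so these changes are not read as a trait of these genes.

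The partners of the proteasome were read from a list of 28 genes, of which 17 had a probe set of their own. At time 2, 7 were higher and 6 lower in heart than in spleen, where 37.3% and 29.8% of all probe sets were, and 5 were higher and 6 lower in liver than in spleen, where 30.1% and 31.3% were. The immune subunits Psmb8 and Psmb9 had the largest spleen excess, at -3.09 and -2.68 for heart over spleen, in the same direction as Psmb10. Nfe2l1, the transcription factor that restores proteasome genes after inhibition, was lower in liver than in heart (-1.28). The ubiquitin shuttle factors Ubqln1 and Rad23b were higher in liver than in heart, by 1.28 and 0.75.

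For strain, spleen had 2 partners higher and 4 lower in A/J, where 6.05% and 6.67% of all probe sets were. Tap1, the peptide transporter of antigen presentation (-1.17, SE 0.11, adjusted p = 2.50e-05), Psmb9 (-0.51, SE 0.088, adjusted p = 0.00184) and Nfe2l1 (-0.33, adjusted p = 0.0121) were lower in A/J, as were Psme1 and Psmb10 in the same arrays. Usp14, the deubiquitinase that trims chains on the regulatory particle, was higher in A/J in lung (0.42, adjusted p = 0.0214), and its strain difference changed with time in liver (-0.85, adjusted p = 0.00861). Sem1, a small lid subunit, was higher in A/J heart (0.38, SE 0.047, adjusted p = 0.000138) and led the partners in the strain by tissue test (F = 18.1, adjusted p = 4.61e-06). For time, 8 partners were higher and 1 lower in liver, against 20.2% and 30.1% of all probe sets. Rad23b and Sem1 were both higher by 0.38 and Ufd1 lower (-0.38).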

How the data were processed

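RNA of 48 mouse tissue samples was hybridised to Affymetrix MG-U74Av2 arrays, from about 20 micrograms of total RNA each, per the labels' protocols. The authors deposited 1 value per probe set and array on a log2 scale, between 4.25 and 14.7. Their probe summary and normalization are not given in the labels or file headers, and no further normalization was applied, so a shift between arrays that their method left in or removed would move every value. After 66 control probe sets were left out, 12422 were tested: 10833 had 1 gene symbol in the platform annotation, 396 had several and 1193 were not listed. Array values carry no read depth, and the number of arrays limits the precision.

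Differences were fitted with limma 3.58.1 (lmFit and eBayes, R 4.3.3) and adjusted by Benjamini-Hochberg over all 12422 probe sets, with a limit of 0.05. Strain and time were fitted per tissue over 12 arrays with the other as an additive term, strain by time as their interaction, tissue pairs over the 24 arrays of time 2, and strain by tissue as an F test over 48 arrays. Scripts were tested on simulated data with known changes. No comparison of strains (8), tissues (24) or times (8) had every same-numbered pair of replicates correlated above 0.1, and the correlations ran from -0.58 to 0.46. With 3 arrays in a group this check cannot tell whether 1 mouse gave several tissues. Numbers were not used as pairs, and the fits treated the arrays as independent.

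The text names every gene that passed in a strain comparison, the 3 with the largest difference in each direction among those that passed in each tissue and time comparison, up to 6 that passed by smallest p in each strain by time test, the 6 of smallest p in the strain by tissue test, and up to 3 partners by smallest p. Psmb10, Psme1, Psmb5, Psmb6 and Psmb7 were added to these, most fully between tissues. They are not given in every comparison, and a missing value does not mean that the gene did not pass. Strain calls within a single time are named in full for liver, spleen and lung at time 2. Other calls within a single time are not all named. Those that are named were added to that rule after their values were seen. The genes and lists were chosen with earlier results of these data known. Alternatives were quantile normalization, centring on array medians, the mean over a gene's probe sets, a filter at the 25th percentile, the replicate block, single times or strains, and leaving out arrays.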

Additional observations from a re-analysis of the deposited data

Results flagged for a closer look

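The strain difference changed between the times in liver for 6 genes, by limma's interaction test adjusted over all probe sets. The change in A/J minus C57BL/6J was -0.72 for Psmd4 (adjusted p = 0.0102), -0.74 for Psmc2 (adjusted p = 0.0245), -0.49 for Psmc1 (adjusted p = 0.0222), -0.56 for Psma7 (adjusted p = 0.0242), -0.60 for Psme4 (adjusted p = 0.0393) and 0.54 for Psmb10 (adjusted p = 0.0478). Each mean rests on 3 arrays, and the count of 6 ran from 1 to 16 as single arrays were left out.

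The strain difference varied between tissues for 7 named genes, by limma's F test: 15.2 for Psme1 (adjusted p = 2.42e-05), 12.6 for Psmg4 (adjusted p = 0.000116), 8.92 for Psmc3 (adjusted p = 0.00153), 7.19 for Psmb10 (adjusted p = 0.00547), 6.32 for Psme4 (adjusted p = 0.0107), 5.59 for Psmg1 (adjusted p = 0.0186) and 4.50 for Psmb5 (adjusted p = 0.0449). Other probe sets of the same genes did not pass: the dimmer Psme1 set gave 0.57 (adjusted p = 0.765), the Psmc3 sets 0.63 and 2.06 (adjusted p = 0.740 and 0.290) and the second Psmb5 set 0.49 (adjusted p = 0.801). Psmb5 lost the call without any of 25 single arrays. Psme1 was lower in A/J in liver and spleen and higher in heart, and Psmg4 was higher in A/J in heart and lower in spleen.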

How the results depend on the processing

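Of the alternatives for the named results that passed, 2642 kept the direction and the side of the limit, 224 lost the call and 5 reversed. With the time 1 arrays Psme3ip1 in heart against lung was 0.053 (adjusted p = 0.451) and Psme1 in heart against spleen 0.18 (adjusted p = 0.0346). With the mean over its probe sets Psme1 was -0.27 for time in liver (adjusted p = 0.00321), -0.12 for time in spleen (adjusted p = 0.169) and 0.38 in heart against spleen (adjusted p = 2.50e-05), where its dimmer set has the opposite sign; the cause of the others was not tested. Of 1190 alternatives for the 53 results of Psmb10, Psme1, Psmb5, Psmb6 and Psmb7 that did not pass, 45 passed with the same sign, 87 changed sign without passing, and 3 passed with the other sign, all with time 1 arrays: liver against heart for Psmb5 (-0.44) and Psmb6 (-0.39), and spleen against lung for Psmb6 (-0.27). Counts that moved by over 1.5 times follow. The mean over all probe sets of a gene gave 1 call for strain in liver and 11 for strain by time in liver. Median-centred arrays gave 12 for strain by time in liver, and the filter on low values 14. Time 1 alone gave 0 for strain in liver and 2 in spleen, where 2.77% and 4.85% of all probe sets were called. Time 2 alone gave 12 in liver, 9 in spleen, 1 in lung and 24 for strain by tissue. Leaving out the arrays with pancreas markers gave 1 for strain in liver, 0 for strain in spleen, 2 for time in spleen, 3 for strain by time in liver and 5 for strain by tissue. Leaving out the arrays with high Gapdh 3′ signal gave 9 for time in heart. A/J alone gave 12 for time in liver, and C57BL/6J alone gave 7 for time in heart, 7 in spleen and 4 in lung. These fits use fewer arrays, some with 1 left in a group, and beyond that the cause was not tested. The share of all probe sets called is not given here for other scalings, the filter, gene means, the replicate block or arrays left out. Changes in those counts are therefore not read as a trait of these genes.

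With the replicate number as a block, strain in liver gave 0 calls and strain by time in liver 2, and the 17 other counts stayed within 1.5 times. Whether samples of the same number share more than that number is not given in the labels. Leaving out 1 array at a time gave 0 to 3 calls for strain in liver, 2 to 4 in heart, 2 to 6 in spleen and 0 to 1 in lung. For strain by time it gave 1 to 16 in liver, 0 to 1 in heart, 0 to 5 in spleen and 0 to 1 in lung, and for strain by tissue 6 to 12. For time it gave 27 to 31 in liver, 11 to 19 in heart, 14 to 20 in spleen and 9 to 21 in lung. Tissue pairs stayed between 23 and 35. Among strain calls, Psma1 in liver was lost without any of 10 arrays, Psme1 in liver without any of 7 and Psmc3 in spleen without any of 8. Signal over background was not given for these values, so the dimmest genes, Psmc3ip, Psmc4 and Psmd10, carry the least support.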

Other observations

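Over the 48 arrays, the correlation of a gene with the mean of the other proteasome genes had a median of 0.57 and a highest value of 0.93, as a description of arrays that share tissues and runs. Psmd5, the chaperone that holds base ATPases before assembly, went the other way at -0.53, followed by Psmb10 (-0.33), Psmd10 (-0.27), Psmc4 (-0.24) and Psme3 (-0.16). Within groups, after each group's mean was removed, the median was 0.62, and Psmb10 (0.30) and Psme3 (0.31) were positive while Psmd5 was at -0.11. The lowest within groups was the core chaperone Psmg3 at -0.70 (0.34 over the 48 arrays), then Psmd9 (-0.37), Psmc4 (-0.37) and Psmd2 (-0.36). Psmd5 was highest in spleen at time 2, above heart (-0.43 for heart over spleen, adjusted p = 1.41e-07), liver (-0.23, adjusted p = 0.000631) and lung (0.22, adjusted p = 0.000923).

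Psme3ip1, whose protein binds Psme3, was also highest in spleen at time 2, above heart (-0.56 for heart over spleen, SE 0.066, adjusted p = 7.35e-08), liver (-0.35, adjusted p = 5.80e-05) and lung (0.31, adjusted p = 0.000284). Psmc3ip, the meiotic factor, passed in none of the strain, time or tissue comparisons by limma, and its mean level lay at the 10.2 percentile of all probe sets.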
